A study of Saccharomyces cerevisiae with 12 samples.

Results

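The ribosomal DNA (rDNA) array of budding yeast was examined in SUMO ChIP-seq peak lists, in which DNA bound by proteins that carry Smt3, the yeast SUMO protein, had been immunoprecipitated and sequenced. Every peak that overlapped positions 451000 to 470000 of chromosome XII (sacCer3) was taken, which covers the 2 annotated repeats with RDN37-1 and RDN5-1 and with RDN37-2 and RDN5-2. The rule found 17 peaks of 3486 in 6 lists. Of these, 1 and 1 were in the ubc9-6-labelled lists, 7 and 6 in the heat-shock-labelled lists, and 1 and 1 in those of WT untreated cells. All peaks numbered 600 and 709 in the ubc9-6-labelled lists, 302 and 319 with the label heat shock, and 714 and 842 for WT untreated cells.

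The 3 groups had 2 immunoprecipitates each, called against their own inputs. The ubc9-6 strain carries a mutated UBC9, the gene of the only SUMO-conjugating enzyme of yeast, present as tandem copies of ubc9-1 that were integrated at UBC9 in W303, and was grown at 30 °C without heat shock. The heat-shocked cells were the WT strain W303a, grown at 30 °C and then kept at 37 °C for 12 min. The WT untreated cells were W303a at 30 °C. All grew in synthetic complete medium. The study describes the untreated replicates of WT and ubc9-6 as independent and prepared from cultures. The heat-shocked cells are not part of that description. The p-values come from regrouping the lists, 2 against 2.

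The content and the names of the lists both raised doubt about the labels. Of 32 listed heat-shock and chaperone genes, 13 and 15 had a peak summit between 800 bp before and 100 bp after the start codon in the ubc9-6-labelled lists. None had one in either heat-shock-labelled list, and 8 and 4 had one in WT untreated lists. Over all protein-coding genes the same window held a summit for 9.35% and 10.6% of genes in the ubc9-6-labelled lists, 3.73% and 4.45% in the heat-shock-labelled lists, and 11.9% and 12.9% in WT untreated lists. Of the 661 regions shared by both WT untreated lists, 546 also had a region in the ubc9-6-labelled lists and 262 in the heat-shock-labelled lists, so the larger loss was not in the lists that carry the mutant's label. In the short names that tie each list to its sample, the WT untreated lists share a middle letter with the ubc9-6-labelled lists and a last letter with the heat-shock-labelled lists, whereas by the titles they share the strain with heat shock and the untreated state with ubc9-6. What the letters stand for is not stated. The labels were kept as given, and every direction below rests on labels that may be exchanged between ubc9-6 and heat shock. In nearly all regions replicate 2 had the higher fold enrichment, for example in 520 of 546 regions between the ubc9-6-labelled lists and in 509 of these 546 between the WT untreated lists.

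The rDNA is a tandem array of one unit repeated many times. In each unit RNA polymerase I transcribes a 35S precursor that is cut into the 18S, 5.8S and 25S rRNAs of the ribosome, while RNA polymerase III transcribes the 5S rRNA from the opposite strand. The spacer NTS1, between the 5S gene and the 3′ end of the 35S gene, is known for the replication fork barrier and the Fob1 protein that binds it. The spacer NTS2, between the 5S gene and the 35S promoter, holds a replication origin. Several proteins that act on the rDNA, among them the topoisomerase Top1 and subunits of condensin, are known SUMO targets in yeast.

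The reference genome writes out only 2 units of the array. RDN37-1 (YNCL0010C, 451575 to 458432) and RDN37-2 (YNCL0020C, 460712 to 467569), both on the minus strand, are 6858 bp long and had 0 mismatches to each other. NTS2-1 and NTS2-2 (1243 bp each) also had 0 mismatches. RDN5-1 (YNCL0018W, 459676 to 459796, plus strand) and RDN5-2 (YNCL0027W, 468813 to 468931, plus strand) differed at 1 of 119 compared positions, A118G, counted from 1 at the 5′ end of RDN5-1. A complete NTS1 is present once, as NTS1-2 (459797 to 460711, 915 bp). Left of RDN37-1 the sequence matched the end of NTS1-2 for 157 bp, back to position 451418. Reads from all units of the cell's array therefore fall on these repeats, and how reads with several equal positions were placed is not given in the sources used here.

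The first stretch printed is the part of NTS1-2 in which all 4 single-domain lists had their summit, at XII:460494-460615 (plus strand, RefSeq R64, 5′ to 3′), with the summit bases in capitals.
NTS1-2 around the shared summit: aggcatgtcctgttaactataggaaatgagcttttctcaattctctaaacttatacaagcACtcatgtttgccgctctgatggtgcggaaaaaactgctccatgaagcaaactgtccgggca
Its A and T content was 56.6%, against 62.3% in all of NTS1-2 and 61.5% in chromosome XII.

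The 5S sequences are printed because the lists could be compared at copies of this gene outside the array. Inside the array only the heat-shock-labelled lists had a summit near a 5S gene. The capital marks the single position at which the copies differ, A118G. The line below the genes is the stretch just upstream of RDN5-1, XII:459616-459675, with capitals at the summits of the 2 heat-shock-labelled lists.
RDN5-1: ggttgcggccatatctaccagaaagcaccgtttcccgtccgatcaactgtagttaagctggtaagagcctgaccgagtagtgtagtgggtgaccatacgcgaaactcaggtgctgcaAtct
RDN5-3: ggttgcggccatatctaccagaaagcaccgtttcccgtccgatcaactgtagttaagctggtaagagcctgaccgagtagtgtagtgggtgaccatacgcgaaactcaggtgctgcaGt
upstream of RDN5-1: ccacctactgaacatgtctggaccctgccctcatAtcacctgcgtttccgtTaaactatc

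In the ubc9-6-labelled lists and in WT untreated lists the array was one unbroken SUMO domain that covered both repeats. The domain ran from 451451 to 468893 and from 451442 to 468900 in the ubc9-6-labelled lists. In WT untreated lists it ran from 451451 to 468903 and from 451437 to 468915. These 4 domains started 33, 24, 33 and 19 bp inside the left end of the matching spacer sequence, and ended 38, 31, 28 and 16 bp before the last base of RDN5-2.

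**Figure D1:**
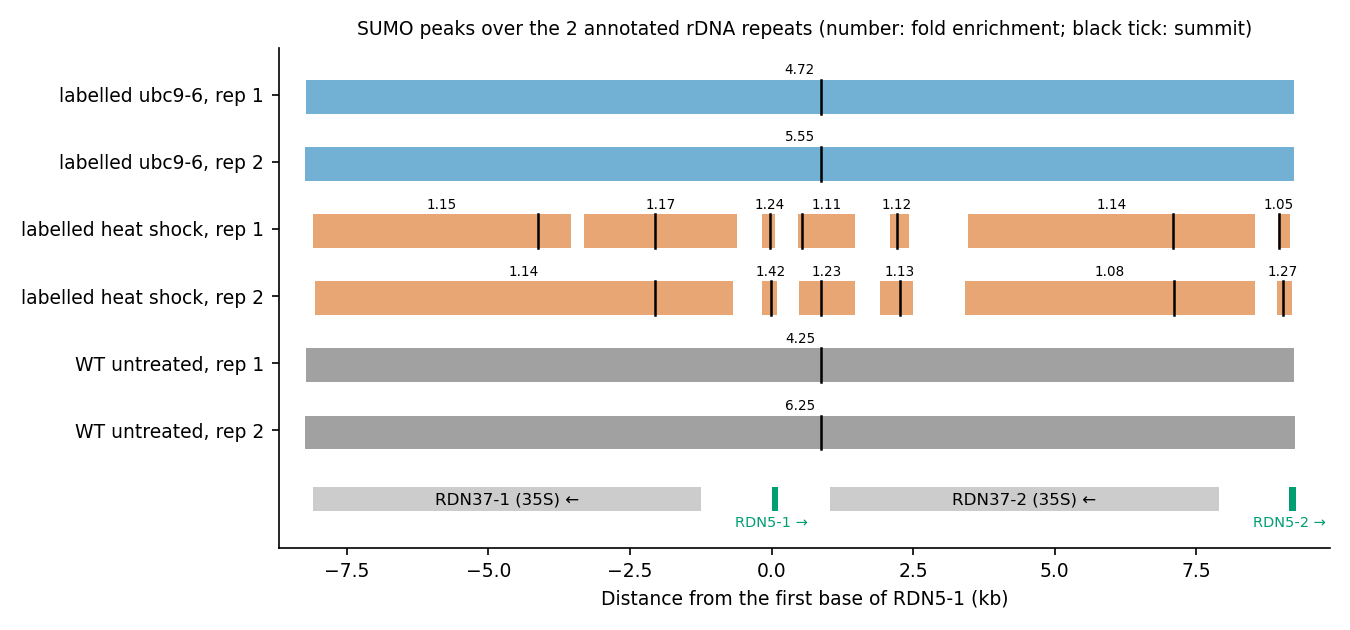
Peaks of each list over the rDNA (boxes), with the summit as a black tick and the fold enrichment above; the x axis is the distance from the first base of RDN5-1 in kb, and genes are drawn below with their direction. The ubc9-6-labelled lists and the WT untreated lists have 1 domain each, and the heat-shock-labelled lists have 7 and 6 pieces.

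The domain covered 17443 and 17459 bp in the ubc9-6-labelled lists, and 17453 and 17479 bp in WT untreated lists. The values of both groups overlapped. All 4 domains began within 33 bp of the left end of the matching sequence and ended within 38 bp of the end of RDN5-2. Covered length was thus near its ceiling on these repeats in both groups, and its test says little about a difference. The means were 17451 ± 11.3 bp in the ubc9-6-labelled lists and 17466 ± 18.4 bp in WT untreated lists (SD, n = 2 each), a difference of -15 bp (exact permutation test, two-sided, p = 0.667). With 2 lists against 2 this exact test cannot go below p = 0.333, so no comparison between groups could pass a threshold of 0.05. Benjamini-Hochberg adjustment over the 8 comparisons of the array (covered length, peak number, best fold and percentile by q-value, in each group) brought the smallest p to 0.667.

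In the heat-shock-labelled lists the rDNA peaks covered 14084 and 14625 bp, which lay below both WT untreated values. The mean was 14354.5 ± 382.5 bp, against 17466 ± 18.4 bp in WT untreated lists (SD, n = 2 each), a difference of -3111.5 bp (exact permutation test, p = 0.333, the smallest possible). From the first base of RDN37-1 to the last of RDN5-2, 81.1% and 84.3% of bases were under a peak in the heat-shock-labelled lists, against 99.8% and 99.9% in WT untreated lists. The number of peaks averaged 6.5 ± 0.707 in the heat-shock-labelled lists and 1 ± 0 in WT untreated lists (SD, n = 2 each), which did not overlap (difference 5.5, exact permutation test, p = 0.333). Counting only peaks of fold enrichment 2 or more turned this difference round to -1, since no rDNA peak of the heat-shock-labelled lists reached that fold.

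The summit lay at 460554 in both ubc9-6-labelled lists, and at 460554 and 460555 in WT untreated lists. The 4 summits thus spanned 1 bp, in NTS1-2, 158 or 157 bp beyond the 3′ end of RDN37-2. The reference holds RDN37 and NTS2 in 2 copies, and of NTS1 only the last 157 bp. The summits therefore stood at the border between sequence present in 1 copy and in 2 copies. Whether read placement set the position of the summit was not tested. Among heat-shock-labelled pieces the background was highest at the piece over NTS1-2, at 8118 and 7434 fragments. In the heat-shock-labelled lists the peak over the same spacer had its summit at 460206 in replicate 1, which was 348 bp away, and at 460550 in replicate 2, which was 4 bp away.

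The fold enrichment of the domain, a linear ratio of fragments at the summit to the local background, was 4.72 and 5.55 in the ubc9-6-labelled lists, and 4.25 and 6.25 in WT untreated lists. Both values of the ubc9-6-labelled lists lay between the WT untreated values. The means were 5.13 ± 0.589 in the ubc9-6-labelled lists and 5.25 ± 1.42 in WT untreated lists (SD, n = 2 each; difference -0.117, exact permutation test, p = 1). The direction of this difference depended on single lists, as it was 0.300 without replicate 1 of those labelled ubc9-6, and -1.12 and 0.884 without WT untreated replicates 1 and 2.

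In the heat-shock-labelled lists no rDNA peak reached a fold enrichment of 2. The 7 peaks of replicate 1 had fold enrichments of 1.05 to 1.24, and the 6 of replicate 2 had 1.08 to 1.42. The best value of each list averaged 1.33 ± 0.130 in the heat-shock-labelled lists and 5.25 ± 1.42 in WT untreated lists (SD, n = 2 each; difference -3.92, exact permutation test, p = 0.333), with no overlap. The best peaks lay at different sites, just upstream of RDN5-1 in the heat-shock-labelled lists and in NTS1-2 in WT untreated lists. The pieces over NTS1-2 in the heat-shock-labelled lists had fold enrichments of 1.11 and 1.23. Outside the rDNA the lowest fold of a nuclear peak in these lists was 1.22 and 1.23, and 6 and 3 of the rDNA peaks lay below it. Of the 10 peaks with the lowest fold in each heat-shock-labelled list, 5 and 5 were in the rDNA. In replicate 1 the rest of these 10 were mitochondrial peaks, so folds this low were not particular to the rDNA in that list. In replicate 2 the rest were nuclear peaks outside the rDNA.

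By q-value the domain ranked first in its list in all 4 single-domain lists. By fold enrichment it stood near the middle of its list, at rank 278 of 600 and 290 of 709 in the ubc9-6-labelled lists, and 406 of 714 and 397 of 842 in WT untreated lists. In the heat-shock-labelled lists the best rDNA peak ranked 206 of 302 and 191 of 319 by q-value, and 285 and 302 by fold enrichment. The percentile by q-value averaged 36.3 ± 5.88 in the heat-shock-labelled lists (SD, n = 2) and was the highest possible in both WT untreated lists. These ranks come from lists of different length, and from the best of several pieces in the heat-shock-labelled lists, so they are given as a description.

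Depth over the array was far above that at most other peaks. The fragments at the domain summit, recovered from the fold enrichment and p-value of the peak, were 28264 and 31138 in the ubc9-6-labelled lists, and 29653 and 41700 in WT untreated lists. The background expected there was 5992 and 5610 fragments in the ubc9-6-labelled lists, and 6979 and 6670 in WT untreated lists. In the heat-shock-labelled lists the background at the rDNA summits was 5326 to 8118 and 4866 to 7434 fragments. That background was 39.4 to 59.8 times the median background of nuclear peaks over all 6 lists (51.1 ± 6.86, SD, n = 6). At 5968 fragments or more, counting error was at most 1.29% of any rDNA summit count. This error takes each fragment as an independent molecule, and whether duplicate reads were removed is not given in the sources used here.

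**Figure D2:**
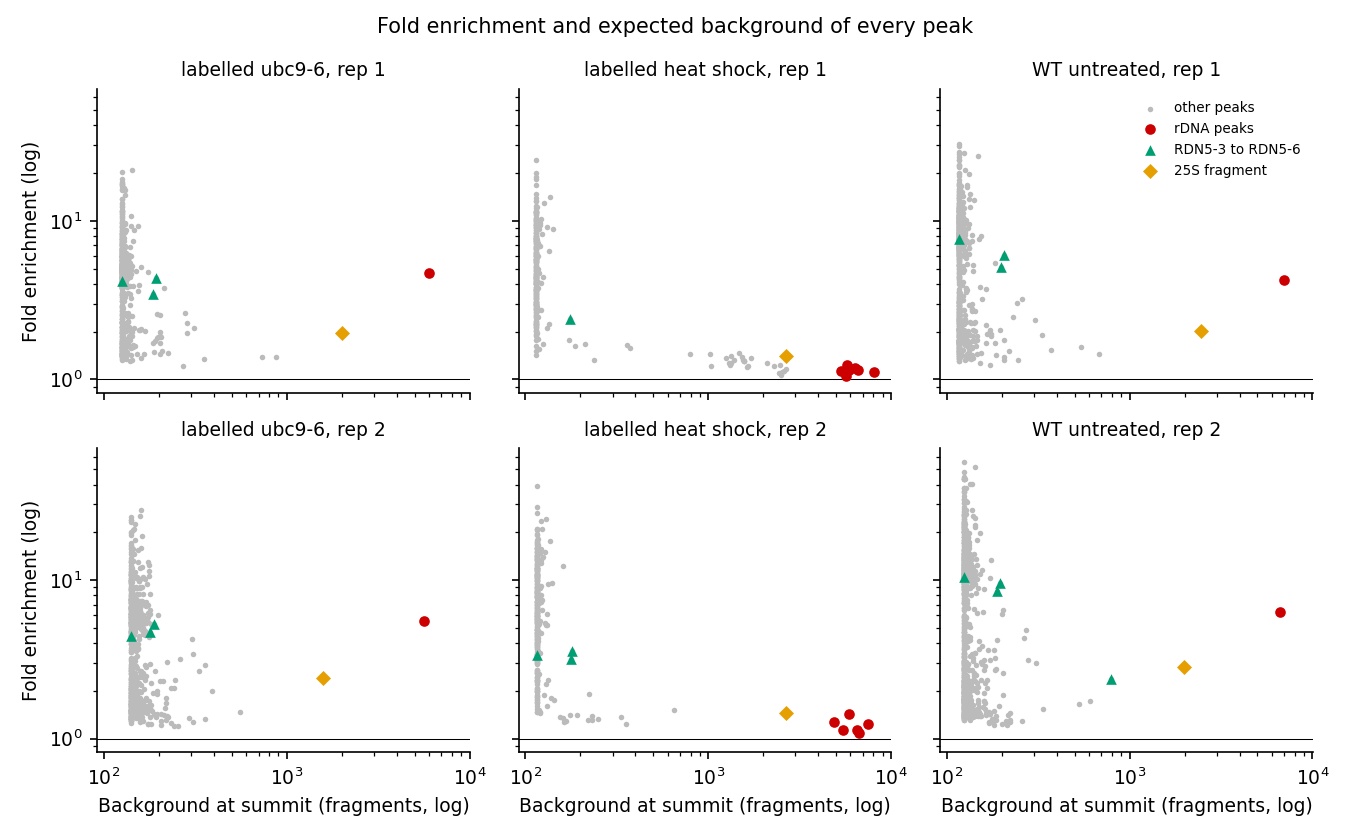
Fold enrichment (y, log scale) against the background at the summit in fragments (x, log scale) for every peak of each list; red points are rDNA peaks, green triangles the 5S genes outside the array and the yellow diamond the 25S fragment. The rDNA lies far to the right in all 6 lists, at folds of 4.25 to 6.25 in the 4 single-domain lists and at 1.05 to 1.42 in the heat-shock-labelled lists.

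The domain was the widest peak of all 4 single-domain lists. The next widest, 3844 and 3978 bp in the ubc9-6-labelled lists and 4023 bp in WT untreated replicate 2, lay over PMA1, the gene of the plasma membrane proton pump. In WT untreated replicate 1 it was 1933 bp wide, over UTR5, HYP2, MTC7, YNCE0005W and MCM3. HSP104, a chaperone gene, lay under the third widest peak in both ubc9-6-labelled lists. In WT untreated lists the third widest lay over TDH3 in replicate 1 (1882 bp) and over TRX1 and PDC1 in replicate 2 (3104 bp). In the heat-shock-labelled lists the 3 widest peaks of replicate 1 (5053, 4546 and 2703 bp) and the 2 widest of replicate 2 (7381 and 5117 bp) were pieces of the rDNA. The third widest of replicate 2 lay over SUF10 and YNCN0017W (1121 bp). The rDNA held 9.55% and 9.02% of all bases under peaks in the heat-shock-labelled lists, against 4.22% and 3.13% in WT untreated lists.

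Most gaps between the pieces lay at similar places in both heat-shock-labelled lists, while the number of pieces and some summits differed. Gaps without a peak lay in NTS2-1 (459064 to 459512 in replicate 1 and 458990 to 459507 in replicate 2) and from RDN5-1 into NTS1-2 (459740 to 460142 and 459776 to 460153). A gap of 407 and 385 bp lay in NTS2-2. The longest gaps were in RDN25-2, at 462111 to 463151 in replicate 1 and 462179 to 463088 in replicate 2. RDN25-2 also had a shorter gap of 626 and 439 bp, and only replicate 1 had a gap in RDN18-1, of 230 bp.

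The 2 copies of the 25S rRNA gene differed in these lists although their sequences were identical. RDN25-1 was covered in full in both heat-shock-labelled lists, while RDN25-2 was covered to 50.9% and 60.3%. RDN58, the 5.8S gene, was covered in full in both repeats of both lists. RDN18, the 18S gene, was covered to 87.2% in the first repeat of replicate 1 and in full elsewhere. NTS2 was covered to 63.9% and 58.3% in the first repeat and to 67.3% and 69.03% in the second. The origin ARS1200-1 in NTS2 was covered to 68.2% and 0%, and ARS1200-2 to 71.96% and 72.9%. Over identical sequence, differences between the annotated repeats cannot be told apart from where the aligner placed reads.

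**Figure D3:**
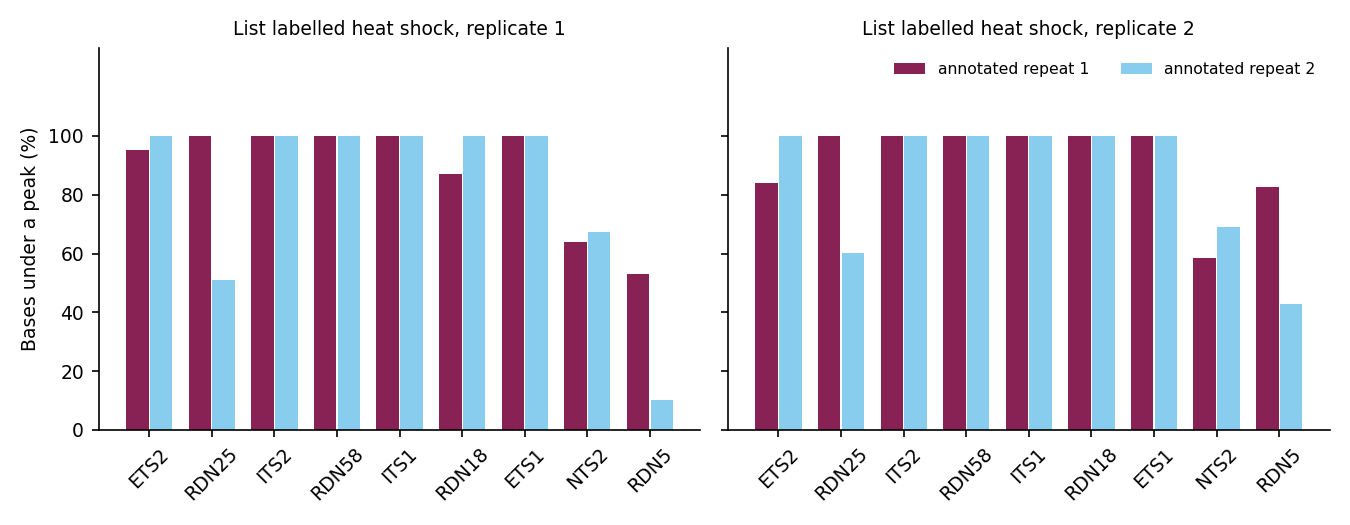
Share of each rDNA element under a peak in the heat-shock-labelled lists (y, percent of bases), with the 2 annotated repeats side by side. RDN25-1 is covered in full and RDN25-2 to 50.9% and 60.3%, while the spacer NTS2 is covered in part in both repeats.

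The rDNA piece with the highest fold in each heat-shock-labelled list stood just upstream of RDN5-1. The piece at RDN5-1 ran from 459513 to 459739 in replicate 1 with its summit at 459650, 26 bp before the gene, and from 459508 to 459775 in replicate 2 with its summit at 459667, 9 bp before it. Its fold enrichments of 1.24 and 1.42 were the highest in the array in both lists. The piece near RDN5-2 had its summit 184 and 116 bp before the gene, at fold enrichments of 1.05 and 1.27. In replicate 1 its fold ranked 302 of 302, the lowest of the list. Upstream of both genes 5000 bp or more are identical, so this difference cannot be told apart from where reads were placed. RDN5-1 itself was covered to 52.9% and 82.6%, and RDN5-2 to 10.1% and 42.9%.

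Outside the array 4 more 5S genes lie on chromosome XII, RDN5-3 to RDN5-6. RDN5-3, RDN5-4 and RDN5-5 carry the A118G difference, and RDN5-6 matched RDN5-1 over all 121 bp. In all 4 the exact match to the array ended 2 bases upstream of the gene. Alignments of 143 bp that allowed mismatches and gaps ran slightly past both ends of the gene, at 95.1% to 97.2% identity. These 4 copies thus have flanks of their own and could be set beside the array. In the ubc9-6-labelled and WT untreated lists, though, the array's only fold was read in NTS1-2, not at a 5S gene.

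RDN5-6 (489349 to 489469) had a peak in all 6 lists. Its fold enrichment was 3.45 and 4.72 in the ubc9-6-labelled lists, 2.39 and 3.56 in the heat-shock-labelled lists, and 5.14 and 8.53 in WT untreated lists. Both groups lay below both WT untreated values, with a difference of -2.75 for the ubc9-6-labelled lists and of -3.86 for the heat-shock-labelled lists (exact permutation tests, p = 0.333 each, the smallest possible; 0.4 after Benjamini-Hochberg adjustment over the 6 tests at copies outside the array). Of all regions with a peak in both ubc9-6-labelled and both WT untreated lists, 82.6% likewise lay below both WT untreated values. For the heat-shock-labelled lists the share was 60.3%. The summits stood 4 to 8 bp before RDN5-6.

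RDN5-5 (485697 to 485815) had fold enrichments of 4.34 and 5.32 in the ubc9-6-labelled lists, a peak of 3.18 in replicate 2 only of the heat-shock-labelled lists, and 6.10 and 9.53 in WT untreated lists. RDN5-4 (482045 to 482163) had 4.18 and 4.46 in the ubc9-6-labelled lists, 3.36 in replicate 2 only of the heat-shock-labelled lists, and 7.73 and 10.5 in WT untreated lists. The ubc9-6-labelled lists did not overlap WT untreated lists at either gene (differences of -2.99 and -4.77, exact permutation tests, p = 0.333 each). The same was so for 82.6% of all regions with a peak in these 4 lists (451 of 546). RDN5-3 (472465 to 472583), the copy nearest to the array, had a peak only in WT untreated replicate 2, of fold enrichment 2.37. For RDN5-4 the peak was 1321 to 1496 bp wide in the ubc9-6-labelled lists and WT untreated lists, and reached well beyond the gene.

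A fragment of the 25S gene, 790 bp at 489753 to 490542, matched the array to 99.0% and also had a peak in every list. Its fold enrichment was 1.95 and 2.41 in the ubc9-6-labelled lists, 1.41 and 1.45 in the heat-shock-labelled lists, and 2.02 and 2.83 in WT untreated lists. The ubc9-6-labelled lists overlapped WT untreated lists (difference -0.248, exact permutation test, p = 0.667), and the heat-shock-labelled lists lay below them (difference -0.994, p = 0.333). Of all regions with a peak in both of these groups, 60.3% likewise lay below both WT untreated values. The background at the summit of the 25S fragment was 11.0 to 23.3 times the median of the list. A 108 bp match to NTS2 on chromosome VI (31622 to 31729) had no peak in any list.

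**Figure D4:**
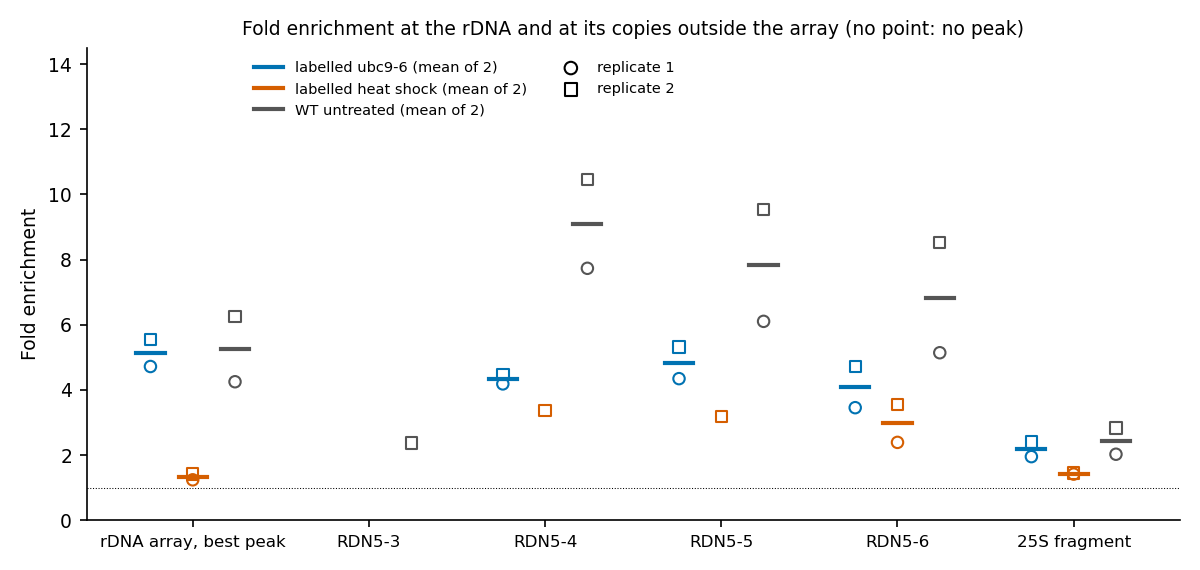
Fold enrichment (y) of the best rDNA peak, the other 4 genes for 5S rRNA and the 25S fragment in each list; circles are replicate 1, squares replicate 2, bars the mean of 2 lists, and a missing point means no peak. The rDNA points of the ubc9-6-labelled lists lie between the WT untreated points. At RDN5-4, RDN5-5 and RDN5-6 the points of these lists lie below both, as in 82.6% of all regions. The rDNA value is read in NTS1-2 in the 4 single-domain lists, not at a 5S gene.

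The array was then placed among all regions. Of 661 regions found in both WT untreated lists, 82.6% were overlapped by a region of the ubc9-6-labelled lists, and 39.6% by one of the heat-shock-labelled lists. The rDNA region was among them in both cases, covered to 99.9% by 1 region of the ubc9-6-labelled lists and to 84.3% by 6 regions of the heat-shock-labelled lists.

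Among the 546 regions with a peak in both ubc9-6-labelled lists and both WT untreated lists, 451 (82.6%) had both folds of the ubc9-6-labelled lists below both WT untreated folds. The rDNA did not. The geometric mean of its folds in the ubc9-6-labelled lists was 0.993 times that in WT untreated lists (log2 ratio -0.01), against a median log2 ratio of -0.77 over all regions, and 530 regions had a lower ratio (percentile 97.3). For the heat-shock-labelled lists 158 of 262 regions (60.3%) lay below WT untreated lists without overlap, and the rDNA was one of them. Its ratio of geometric means was 0.258 (log2 ratio -1.96), the median log2 ratio was -0.72, and 14 regions had a lower one (percentile 5.73). This ratio takes the best rDNA peak of each list. That peak lay in NTS1-2 in WT untreated lists and upstream of RDN5-1 in the heat-shock-labelled lists. Each percentile describes one region and has no test.

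**Figure D5:**
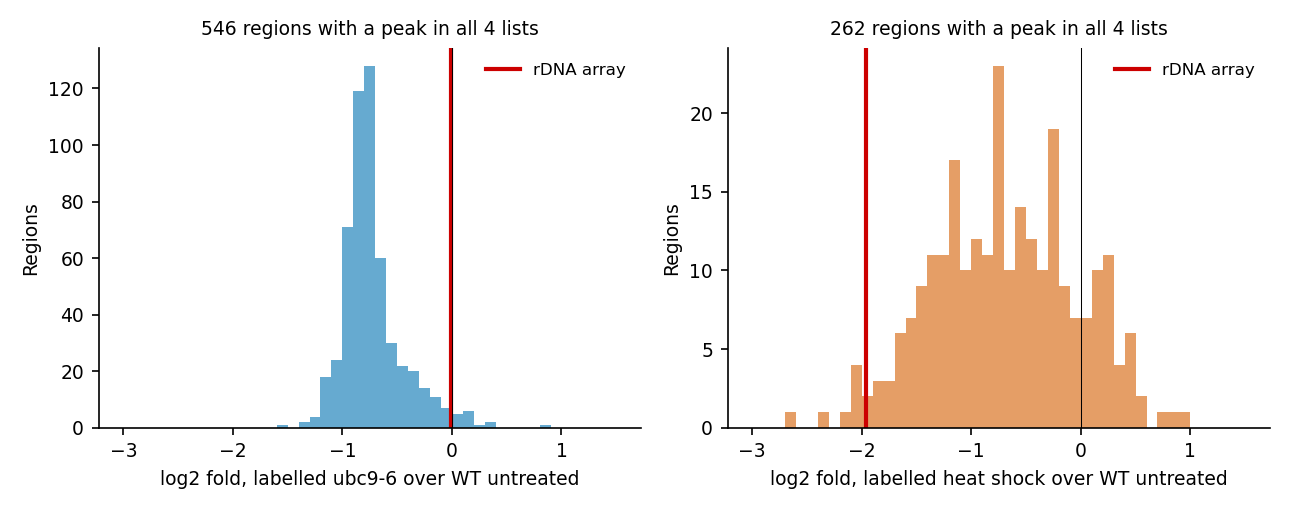
Distribution over regions of the difference in mean log2 fold enrichment, ubc9-6-labelled lists over WT untreated lists (left, 546 regions) and heat-shock-labelled lists over WT untreated lists (right, 262 regions), with the number of regions on the y axis. The red line marks the rDNA, at -0.01 on the left and -1.96 on the right.

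The 5 regions whose fold enrichment over the 6 lists was most like that of the rDNA, of 259 others with a peak in every list, were all nearest to tRNA genes, as were 245 (94.6%) of those 259. The measure was the mean absolute difference in log2 fold, with the best rDNA peak taken in each list, and it was 0.44 for YNCN0004W, 0.46 for YNCO0031W, 0.48 for YNCE0004C, 0.48 for YNCF0004C and 0.50 for YNCK0006C. YNCN0004W, the nearest, had 3.86 and 4.73 in the ubc9-6-labelled lists, 1.92 and 2.58 in the heat-shock-labelled lists, and 5.76 and 7.19 in WT untreated lists. Its values in the heat-shock-labelled lists were above the rDNA's 1.24 and 1.42.

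Distances from the array to the nearest peaks are given as a description, since spacing between peaks was not compared over the genome. The nearest peak to the left ended 23.97 to 24.22 kb away in all 6 lists. To the right the gap was 12.0 and 7.22 kb in the ubc9-6-labelled lists, 20.4 and 13.1 kb in the heat-shock-labelled lists, and 12.1 and 3.42 kb in WT untreated lists.

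The core of the site bound by Reb1, a factor of RNA polymerase I termination and of spacer chromatin, was searched as TTACCCG on both strands. It occurred 4 times per repeat, in ETS2 (the 3′ external spacer), RDN25, RDN18 and NTS2, where it stood 206 bp beyond the 5′ end of RDN37. None was in NTS1-2 or in the printed stretch, and the nearest stood 254 bp from the shared summit. Of all windows of 300 bp in the genome, 1.86% held the core. The ARS consensus, the core of replication origins, occurred once per repeat, in NTS2 (1.88% of windows), and overlapped no Reb1 core. These are matches of letters, not tested sites.

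Genes for the proteins that act on the rDNA were counted as a list of 39, which held subunits of RNA polymerase I and its initiation factors, rDNA chromatin factors, condensin and 5S factors. A summit between 500 bp before and 200 bp after the start codon was found in both lists for 3 of them in those labelled ubc9-6, 0 in the heat-shock-labelled lists and 3 in WT untreated lists. Over all 6002 protein-coding genes the shares were 6.93% in the ubc9-6-labelled lists, 2.62% in the heat-shock-labelled lists and 8.28% in WT untreated lists, so the list gave no count that stands out.

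The 3 genes were the same in both groups. TFC3, which encodes a subunit of the RNA polymerase III factor TFIIIC, had fold enrichments of 2.12 and 2.78 in the ubc9-6-labelled lists, against 1.88 and 2.87 in WT untreated lists. RPL5, the gene of the ribosomal protein that binds 5S rRNA, had 2.40 and 2.97 in the ubc9-6-labelled lists, against 3.17 and 5.88 in WT untreated lists. RPA34, which encodes a subunit of RNA polymerase I, had 2.29 and 2.56 in the ubc9-6-labelled lists, against 4.72 and 5.72 in WT untreated lists. Its summit was nearer to the small nucleolar RNA gene SNR190, and that of RPL5 was nearer to COX11.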

How the data were processed

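SUMO ChIP-seq of 12 samples (6 immunoprecipitates and their 6 inputs) was used through the 6 deposited peak lists. The authors trimmed the reads, aligned them to sacCer3 with Bowtie2 2.3.5 and called peaks per immunoprecipitate against its input with MACS 2.1.1.20160309 at a q-value limit of 0.05, and replicates were not pooled. The deposited values are peak position, a display score, the fold enrichment (a linear ratio with a pseudocount of 1 at the summit) and the p-value and q-value on the −log10 scale. The deposited score was not used in any result. No library depth is given in the lists, so fragments at the summit and background were recovered from fold enrichment and p-value. For 3482 of 3486 peaks the recovered pair gave the deposited −log10 p within 0.01. The pair was fitted to that same value, so this is not a separate check of the counts.

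Groups came from sample titles. Overlapping peaks (1 bp or more) were merged, and a region needed a peak from each replicate. Lists were compared by the two-sided exact permutation test (Python 3.11.15, numpy 2.4.6), and functions were tested on simulated data. The study's differential test needs reads and was not run. Copies of the repeat were found with blastn 2.17.0 (E-value limit 1e-10) in RefSeq R64, the same assembly as sacCer3, which also gave sequences and annotation. Named in the text were the members, the 4 genes for 5S rRNA outside the array, the 3 widest peaks of each list, the 5 regions most alike in fold, and listed rDNA factor genes with a summit. Members and lists were chosen with earlier results of these data known. Alternatives were other intervals, summits in place of overlap, a q limit of 0.001, fold enrichment of 2 or more, joining within 200 bp, other windows, each replicate left out and a replicate block.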

Additional observations from a re-analysis of the deposited data

How the results depend on the processing

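The comparisons of the rDNA between groups kept their direction for the heat-shock-labelled lists under every alternative run except 1. With peaks of fold enrichment 2 or more, the difference in peak number turned to -1, and the share of the WT untreated region still covered was 0%. Under that limit no best fold and no percentile could be given for the heat-shock-labelled lists. The difference in best fold for the ubc9-6-labelled lists ranged from -1.12 to 0.884 when each list was left out in turn, and so changed sign. Ranking by fold enrichment in place of q-value gave a percentile difference of 8.41 for the ubc9-6-labelled lists, against 0 by q-value. The share of the WT untreated rDNA region covered ranged from 99.79% to 99.98% for the ubc9-6-labelled lists and from 80.6% to 84.4% for the heat-shock-labelled lists as lists were left out. A wider promoter window raised the rDNA factor genes, of 39, to 5 in the ubc9-6-labelled lists, 2 in the heat-shock-labelled lists and 5 in WT untreated lists. Over all protein-coding genes, the window of 800 bp before to 100 bp after the start codon was counted in single lists only. It held a summit for 9.35% and 10.6% of genes (ubc9-6-labelled), 3.73% and 4.45% (heat-shock-labelled), and 11.9% and 12.9% (WT untreated). The counts of factor genes are therefore a description. The log2 ratio of the rDNA fold, ubc9-6-labelled over WT untreated lists, ranged from -0.29 to 0.27 as lists were left out. The difference in covered length for the ubc9-6-labelled lists ranged from -28 to -2 bp, and was 0 bp over the first repeat alone.

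Replicate numbers are shared by all groups, but the labels name no shared culture or day. Between replicates 2 and 1, log2 folds of regions deviated together with Pearson r = 0.44 over 546 regions (ubc9-6-labelled lists and WT untreated) and r = 0.07 over 262 (heat-shock-labelled lists and WT untreated). With the replicate block the differences were -3111.5 bp covered, 5.5 peaks and -3.92 in best fold for the heat-shock-labelled lists (exact sign-flip test, p = 0.5 each, the smallest possible), and -15 bp (p = 0.5) and -0.117 in best fold (p = 1) for those labelled ubc9-6. With 2 lists per group, no comparison could pass a threshold of 0.05.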
